A study of Mus musculus with 45 samples.

Results

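Macrophages of the meninges (mMΦ) were compared between postnatal day 3 (P3) and postnatal day 10 (P10), with 3 libraries at each age out of the 45 libraries of the series. The 6 libraries were taken by their labels, and all genes of the table entered the comparison. All came from untreated Cx3cr1GFP/wt mice of the C57BL/6J strain kept under specific-pathogen-free conditions, so that in every animal of both groups 1 allele of the fractalkine receptor gene Cx3cr1 carries a GFP reporter. Each replicate was 1 mouse, per the design of the series, and all 6 libraries belong to sequencing batch S232. The sources used here do not give the gates by which mMΦ were sorted. Levels are CPM, read counts scaled to a common library total with TMM factors, which assume that most genes do not change. Differences are log2 fold changes of P10 against P3 ± SE.

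Meningeal macrophages are border-associated macrophages, which colonise the coverings of the brain before birth, take up debris and serum proteins through scavenger receptors, and can present antigen on MHC class II molecules. Tissue macrophages of young animals also divide: cells entering S phase load the MCM helicase on their replication origins and make nucleotides through ribonucleotide reductase, and cells in mitosis build and check the spindle. Immediate early genes such as Fos, Junb and Atf3 encode transcription factors that are switched on within minutes of a stimulus, and they are known to be induced as well while a tissue is taken apart for sorting.

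Defining markers of border macrophages were present at both ages. The mannose receptor gene Mrc1 stood at 4283, 4367 and 5124 CPM in P3 replicates 1, 2 and 3 and at 3424, 3424 and 3543 CPM at P10. Lyve1, which encodes a receptor for hyaluronan, stood at 3468, 3731 and 4917 CPM at P3 and at 2329, 2251 and 2423 CPM at P10. In microglia of the series Lyve1 averaged 2.03 CPM at P3 and 0.387 CPM at P10. Sall1, a transcription factor gene of microglial identity, averaged 0.907 CPM in mMΦ at P3 and 0.572 CPM at P10, against 233 and 299 CPM in microglia. Markers of T and NK cells and of mast cells summed to at most 1.38 and 2.1 CPM in any library, with 4 of 12 and 3 of 8 genes at 0 in all 6, and too few counts for a test. Markers of fibroblasts and leptomeningeal cells summed to 254 to 302 CPM at P3 and 131 to 380 CPM at P10, and 0 of 17 tested members passed edgeR's quasi-likelihood test, 0 had an unadjusted p under 0.05 and the Wald test of DESeq2 called 0. Mural cell markers reached 27.0 to 43.3 CPM at P3 and 36.1 to 145 CPM at P10, with 0 of 4 called by edgeR's test and 1 by the Wald test or at an unadjusted p under 0.05. Endothelial markers reached 8.73 to 10.7 and 4.09 to 11.3 CPM, with 0 of 4 called by either test or at an unadjusted p under 0.05. Monocyte, neutrophil, B cell, erythroid, osteoclast, astrocyte and ependymal lists had 0 members called by edgeR's test. At an unadjusted p under 0.05 they held 1, 1, 1, 1, 0, 2 and 0 members, and the Wald test called 1, 1, 1, 0, 0, 2 and 0. In these bulk libraries, fewer cells of a type and less RNA per cell cannot be told apart.

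Library totals ran from 17557385 to 23191073 counts, and all 6 libraries held Y-linked transcripts at 139 to 160 CPM and next to no Xist. P10 replicate 3 had the lowest total and the most detected genes, 18603 against 16414 to 16867 in the other 5 libraries at an equal total. Transcript length moved with age: genes with transcripts of at least 5 kb took 11.2 to 11.5% of the counts at P3 and 8.77 to 9.56% at P10. The median log2 fold change was 0.31 for genes under 1 kb and -0.24 for genes of 4 to 6 kb. The median length was 2215 bases for genes called higher at P10, 4124 for genes called lower and 2940 for all genes tested. Summed levels of immediate early and dissociation genes were 3279, 3516 and 13250 CPM at P3 and 34740, 41130 and 37380 CPM at P10, so that P3 replicate 3 stood apart from the other P3 libraries. The part of transcript length and of these genes in the results that follow was not tested. Values from a fit with length offsets are given where a reported gene chosen by the naming rule lost its call. They are also given where a list's count moved by more than 1.5 times. The plot of library measures shows both patterns.

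**Figure D1:**
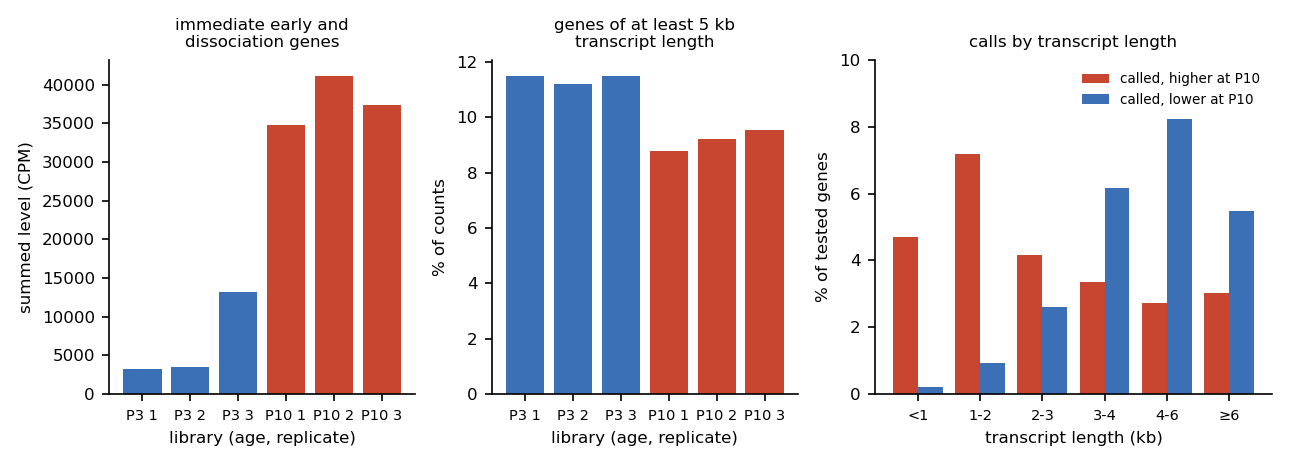
Left, summed level in CPM of the immediate early and dissociation genes in each library, 3279 to 13250 CPM at P3 (blue) and 34740 to 41130 CPM at P10 (red). Middle, percent of each library's counts from genes with transcripts of at least 5 kb, higher at P3. Right, percent of tested genes called higher (red) or lower (blue) at P10 by transcript length, with calls of lower genes concentrated above 3 kb.

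Between P3 and P10, edgeR's quasi-likelihood test with Benjamini-Hochberg adjustment called 1034 of 12462 tested genes at an adjusted p under 0.05, which is 8.3%. Of these, 529 genes were higher at P10 (4.24%) and 505 lower (4.05%), and 311 of the higher and 253 of the lower genes differed at least 2-fold. An unadjusted p under 0.05 was reached by 3007 genes. In all 1034 called genes the 3 libraries of one age lay entirely above the 3 of the other. Lack of overlap, where given for called genes below, thus comes with the call and is no further support. Genes that were not called, such as Mcm4, Cdk1, Fos and Ccl2, could lie apart too. The share of genes lying apart among all genes tested was not counted. The count was 441, 360 and 602 without P3 replicate 1, 2 or 3, and 702, 624 and 491 without P10 replicate 1, 2 or 3. It was 114 (109 higher and 5 lower) when all 45 libraries shared 1 estimate of spread, and 806 with length offsets, of which 59.8% were higher at P10. Of the 115 called genes chosen by the naming rule, 44 stayed called in each of the 6 fits with 1 library left out. With length offsets 91 stayed called, and 22 in the fit of all 45 libraries. All 115 kept their direction in every one of these fits. That follows largely from their choice, since they had no overlap between ages in the same libraries. Length offsets ended some calls at a similar log2 fold change, as for Top2a (-2.22, then -2.004), Ccne2 (-3.25, then -3.13), Atf3 (4.70, then 4.59), Junb (3.27, then 3.12), Ccl3 (3.09, then 2.79), Cd209b (1.40, then 1.31) and Insig1 (1.84, then 1.89). Tlr6 (-1.35, then -1.17), B2m (0.69, then 0.42), Pdk1 (-1.06, then -0.84) and Igf2bp3 (-0.80, then -0.57) lost their calls too, as did genes named for it below. Among lists, length offsets lowered the calls by more than 1.5 times in complement (3 to 1 higher), cholesterol synthesis (2 to 1 higher) and oxidative phosphorylation (2 to 0 higher). The same held for cytokine and chemokine receptors (3 to 1 lower), innate sensing receptors (2 to 0 lower), TGF-beta and BMP signalling (2 to 1 lower), microglia markers (1 to 0 lower) and fetal and imprinted genes (1 to 0 lower).

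**Figure D2:**
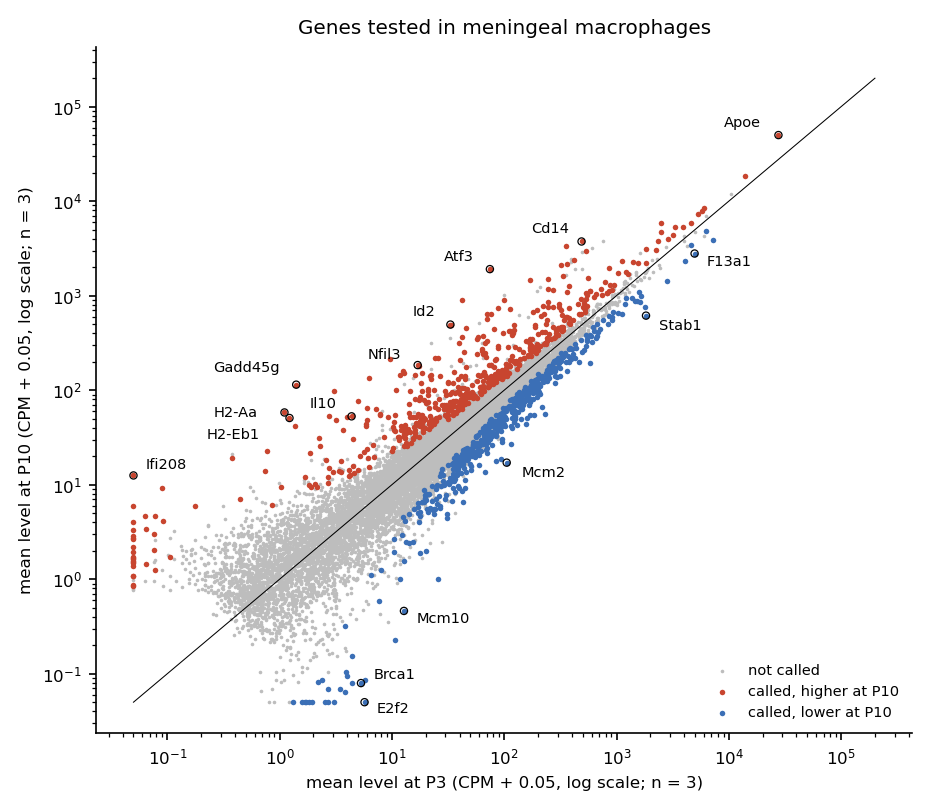
Mean level at P3 (horizontal) against mean level at P10 (vertical) of the 12462 tested genes, in CPM plus 0.05 on log axes, n = 3 libraries each. Red points are the 529 genes called higher at P10 and blue points the 505 called lower, with H2-Aa, Gadd45g and Ifi208 far above the line of equal levels and E2f2, Brca1 and Mcm10 far below it.

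Genes of antigen presentation by MHC class II rose. Of 8 tested members of the MHC class II list, 6 were higher at P10 and 0 lower, with a median log2 fold change of 2.77 against 0.01 for all genes tested. H2-Aa, the alpha chain of the class II molecule I-A, stood at 0.922, 1.15 and 1.09 CPM at P3 and at 82.9, 61.1 and 30.2 CPM at P10, a log2 fold change of 5.79 ± 0.44 (adjusted p = 0.00092, edgeR's quasi-likelihood test). Every P10 library lay at least an order of magnitude above every P3 library, and P10 replicate 3 was the lowest of the P10 group. The beta chain gene H2-Ab1 stood at 3.48, 3.06 and 2.4 CPM and then at 112, 135 and 48.9 CPM (5.06 ± 0.42). H2-Eb1, the beta chain of I-E, stood at 1.3, 1.76 and 0.463 CPM and then at 78.0, 55.1 and 19.1 CPM (5.44 ± 0.67). Cd74, the invariant chain that guides class II molecules to the endosome, was already present at P3 with 89.2, 98.0 and 108 CPM and reached 483, 458 and 255 CPM (2.04 ± 0.23). H2-DMa and H2-DMb1, the chains of the peptide editor H2-M, rose by 2.03 ± 0.37 and 1.41 ± 0.29 on the log2 scale. Not called were H2-DMb2 (1.11 ± 1.24) and H2-Ob (3.5 ± 1.54). Ciita, the master activator of these genes, had too few counts to be tested. The number of members called was 4 to 6 when 1 library was left out, 6 with length offsets and 5 in the fit of all 45 libraries, and the calls of H2-Aa, H2-Ab1, H2-Eb1 and Cd74 held without each library. Dendritic cell markers other than the class II genes summed to 56.1 to 59.8 CPM at P3 and 119 to 144 CPM at P10, and 1 of 5 tested was called, Siglech, which microglia also express. The dendritic cell gene Cd209a was at 1.09, 0.192 and 0.21 CPM and then at 1.66, 19.1 and 7.29 CPM. Monocyte markers summed to 4.17 to 6.41 and 8.23 to 20.2 CPM. The part of such cells in the class II rise was not tested.

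Promoter sequence is shown for the class II genes with the largest changes, because their expression is known to depend on a short promoter stretch that holds a CCAAT box (also called the Y box), and for genes of the replication and mitosis lists, many of which carry CCAAT boxes too. Anln, a called mitosis gene shown for the size of its change, has a stretch that holds no match. The bases just after its annotated start were not found near the start of any GENCODE vM21 transcript, unlike those of the other genes shown. Its start, and so the lack of a match, is less certain. The stretches are the 250 bases before the annotated start from RefSeq (GRCm38.p6), given 5′ to 3′ on the gene's strand, with CCAAT, or ATTGG where it lies on the other strand, in capitals. H2-Aa is at chr17:34287824-34288073 on the minus strand, H2-Eb1 at chr17:34305617-34305866 on the plus strand, Mcm10 at chr2:5012792-5013041 on the minus strand, Mcm2 at chr6:88898781-88899030 on the minus strand, Bub1b at chr2:118597961-118598210 on the plus strand and Anln at chr9:22389207-22389456 on the minus strand.
H2-Aa: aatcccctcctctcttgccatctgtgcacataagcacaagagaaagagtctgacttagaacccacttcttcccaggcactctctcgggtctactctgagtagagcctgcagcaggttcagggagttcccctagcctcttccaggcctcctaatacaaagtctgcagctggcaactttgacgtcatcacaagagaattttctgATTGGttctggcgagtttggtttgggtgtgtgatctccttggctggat
H2-Eb1: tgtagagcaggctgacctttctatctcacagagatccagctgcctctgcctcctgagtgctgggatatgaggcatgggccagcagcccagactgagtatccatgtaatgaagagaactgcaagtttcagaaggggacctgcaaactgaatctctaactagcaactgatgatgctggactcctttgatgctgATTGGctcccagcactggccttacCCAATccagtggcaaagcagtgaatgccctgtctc
Mcm10: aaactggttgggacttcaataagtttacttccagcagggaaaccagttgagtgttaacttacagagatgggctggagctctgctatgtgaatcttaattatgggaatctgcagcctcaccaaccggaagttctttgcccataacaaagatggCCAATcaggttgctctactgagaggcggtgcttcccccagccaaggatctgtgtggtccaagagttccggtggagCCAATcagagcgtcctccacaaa
Mcm2: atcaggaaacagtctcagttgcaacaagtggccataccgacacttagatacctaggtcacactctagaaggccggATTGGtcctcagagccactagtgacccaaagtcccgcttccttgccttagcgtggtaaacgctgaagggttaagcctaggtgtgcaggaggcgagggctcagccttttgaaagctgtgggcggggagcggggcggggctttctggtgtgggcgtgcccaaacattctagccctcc
Bub1b: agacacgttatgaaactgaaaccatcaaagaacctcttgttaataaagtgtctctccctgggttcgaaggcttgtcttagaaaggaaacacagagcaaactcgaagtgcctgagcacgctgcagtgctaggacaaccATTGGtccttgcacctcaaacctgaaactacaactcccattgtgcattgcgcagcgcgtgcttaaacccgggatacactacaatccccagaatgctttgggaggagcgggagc
Anln: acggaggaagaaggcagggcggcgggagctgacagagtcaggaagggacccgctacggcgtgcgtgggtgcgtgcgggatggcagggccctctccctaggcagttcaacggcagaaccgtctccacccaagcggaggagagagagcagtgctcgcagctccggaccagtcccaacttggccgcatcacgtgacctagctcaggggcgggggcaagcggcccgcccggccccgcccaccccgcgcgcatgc

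CCAAT, searched on both strands, was found in 5 of 6 class II members with a promoter entry (83.3%), in 14 of 24 members of the replication list (58.3%), in 20 of 24 of the mitosis list (83.3%) and in 11 of 26 immediate early and dissociation genes (42.3%), beside 37.1% of the 9518 tested genes with an entry and 34.5% of all 27025 promoters. An E2F site, taken as TTCCCGC, as TTGGCGC or as TTCGCGC on either strand, was found in 10 of 24 replication members (41.7%) and 4 of 24 mitosis members (16.7%), beside 12.6% of the tested genes. TTTGAA, the cell cycle homology region of mitotic genes, was found in 8 of 24 mitosis members (33.3%) and 3 of 24 replication members (12.5%), beside 10.7% of the tested genes. A match describes letters in the window and is no measured binding site.

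Many genes of DNA replication fell. Of 30 members of the S phase and DNA replication list, 16 were lower at P10 and 0 higher, with a median log2 fold change of -1.497. Their summed level was 1499, 1651 and 1343 CPM at P3 and 556, 550 and 543 CPM at P10. Mcm2, a subunit of the replicative helicase, fell from 85.4, 134 and 96.6 CPM to 16.1, 21.7 and 13.4 CPM (-2.60 ± 0.25, adjusted p = 0.0017, edgeR's quasi-likelihood test). Mcm6, another subunit, fell from 212, 231 and 205 CPM to 70.3, 64.6 and 65.9 CPM (-1.67 ± 0.11, adjusted p = 0.00058). The P3 and P10 libraries of both genes were far apart compared with their scatter. Mcm10, which helps to start the helicase, went from 6.91, 21.6 and 9.77 CPM to 0.083, 0.379 and 0.774 CPM (-4.94 ± 0.86). Rrm2, the regulated subunit of ribonucleotide reductase, went from 52.8, 48.8 and 32.8 CPM to 10.4, 6.39 and 10.8 CPM (-2.27 ± 0.30). Ccne2, the cyclin of S phase entry, changed by -3.25 ± 0.76, and Chaf1b, a chaperone that places histones on new DNA, by -2.28 ± 0.41. E2f2, a transcription factor of the same programme, had 5.2, 9.92 and 1.85 CPM at P3 and no count in any P10 library. Taking 3 counts over the group as the floor, that is at least 122-fold lower. This bound, like the bounds and counting intervals below, pools the counts of a group and leaves out the spread between mice. Pcna, the sliding clamp of the polymerases, stood at 48.3, 52.3 and 53.6 CPM and at 44.7, 48.3 and 62.1 CPM (0.03 ± 0.18) and was not called. Mcm4 was not called at -1.49 ± 0.48, with a wide P10 spread of 9.8 to 48.0 CPM. The 16 calls became 7, 6 and 11 without P3 replicate 1, 2 or 3, 13, 12 and 12 without P10 replicate 1, 2 or 3, 15 with length offsets, 2 in the fit of the 15 mMΦ libraries and 0 in that of all 45. Mcm2 was called without each library, while the calls of Mcm10 and of E2f2 were lost without P3 replicate 2 and that of E2f2 also without P3 replicate 1. Chaf1b was lost without P10 replicate 3 and without each P3 library, and Ccne2 was called only in the fit without P10 replicate 2.

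Some genes of mitosis fell. Of 30 members of the G2 and mitosis list, 7 were lower at P10 and 0 higher, with a median log2 fold change of -1.26. Summed levels were 1166, 1364 and 815 CPM at P3 and 714, 539 and 512 CPM at P10. Bub1b, a kinase of the spindle checkpoint, stood at 31.8, 48.0 and 45.4 CPM and at 7.31, 15.2 and 3.04 CPM (-2.27 ± 0.52). Top2a, which untangles chromosomes, stood at 67.3, 121 and 62.4 CPM and at 21.1, 26.4 and 5.53 CPM (-2.22 ± 0.53). Anln, a scaffold of the cleavage furrow, changed by -2.23 ± 0.44 and the cyclin gene Ccna2 by -1.66 ± 0.34. The P10 values of these genes scattered widely, with P10 replicate 3 lowest in Bub1b, Top2a and Ccna2. Cdk1, the kinase that drives mitotic entry, was at 144, 157 and 122 CPM and then at 112, 108 and 65.5 CPM (-0.55 ± 0.21), and was not called. Nor was the proliferation marker Mki67, at 15, 27.7 and 16.5 CPM and then at 12.6, 6.67 and 12 CPM (-0.90 ± 0.37). Cenpa, the histone of centromeres, had a positive value that was not called (0.61 ± 0.25). The 7 calls became 0, 0 and 4 without P3 replicate 1, 2 or 3, 6, 2 and 2 without P10 replicate 1, 2 or 3, 5 with length offsets and 0 in the fit of all 45 libraries. Bub1b was called only without P10 replicate 2, Top2a only without P10 replicate 3, Anln without P10 replicate 1 or P3 replicate 3, and Ccna2 without P10 replicate 1 or 3. Among other genes with the largest falls was Brca1, a repair gene with 4.94, 10.2 and 0.631 CPM at P3 and 2 counts in all at P10 (ratio 171, with a 95% counting interval of 47.1 to 1420). Ncapd2, a condensin subunit (-4.75 ± 0.92), Rad51ap1, a gene of homologous recombination (-2.64 ± 0.49), and Prkdc, the DNA-dependent protein kinase (-2.44 ± 0.57), were lower as well. Fignl1 (-2.71 ± 0.46), a recombination gene, and Shcbp1 (-2.68 ± 0.35), a gene of dividing cells, were called without each library. Brca1 was called only without P3 replicate 3, Prkdc only without P10 replicate 2, Rad51ap1 was lost without P10 replicate 3 or P3 replicate 1 or 2, and Ncapd2 without P10 replicate 1 or 2 or P3 replicate 1 or 2.

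**Figure D3:**
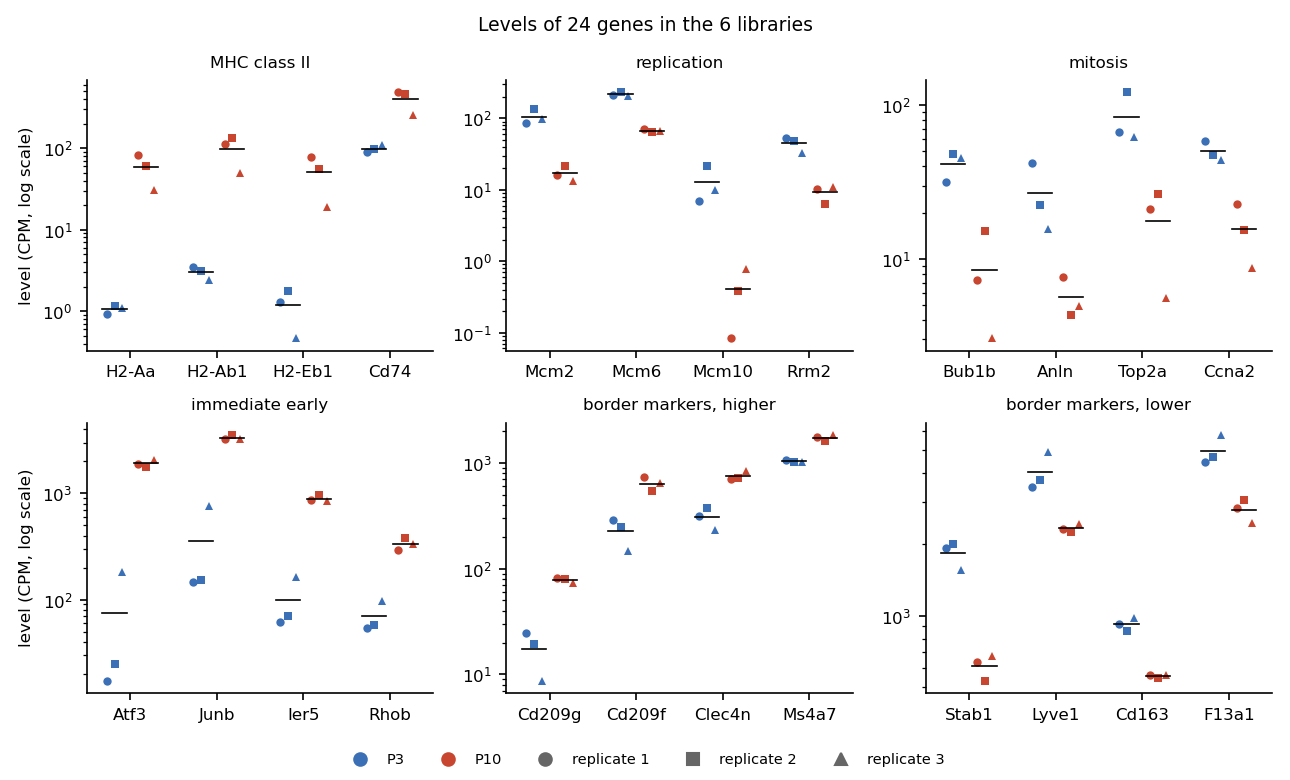
Level in CPM (log axes) of 24 genes in each library, P3 in blue and P10 in red, with marker shapes for replicates 1, 2 and 3 and bars at the group means. The 2 ages do not overlap in any of the 24 genes, as in all called genes. In the immediate early genes P3 replicate 3 lies between the other P3 libraries and the P10 group.

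Border macrophage markers moved in both directions: 12 of 29 tested members were higher at P10 and 9 lower, with a median log2 fold change of 0.36. Some scavenger and haem receptors were among the lower ones, while the scavenger receptor gene Cd36 was higher (0.69 ± 0.14). With 1 library left out, Cd36 was called only without P10 replicate 1 or P3 replicate 2. Stab1, the scavenger receptor stabilin-1, fell from 1925, 2012 and 1557 CPM to 640, 530 and 676 CPM (-1.55 ± 0.13, adjusted p = 0.0013, edgeR's quasi-likelihood test). The haemoglobin-haptoglobin receptor gene Cd163 fell from 917, 865 and 977 CPM to 561, 546 and 563 CPM (-0.71 ± 0.08). Lyve1, with the values given above, changed by -0.77 ± 0.13. F13a1, the coagulation factor XIII A chain, went from 4431, 4673 and 5769 CPM to 2852, 3079 and 2445 CPM (-0.81 ± 0.12), and the iron exporter gene Slc40a1 from 1473, 1439 and 1656 CPM to 771, 1083 and 750 CPM (-0.79 ± 0.15). In each of these lower genes the lowest P3 library exceeded the highest P10 library. Siglec1, a sialic acid receptor, and Dab2, an endocytic adaptor, were lower by the same test (-0.99 ± 0.18 and -0.88 ± 0.07), and Mrc1 changed by -0.39 ± 0.08.

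Several higher border markers encode C-type lectins, while Mrc1, another gene of that class, was lower. Cd209g and Cd209f, paralogues of the lectin DC-SIGN, went from 24.7, 19.2 and 8.63 CPM to 81.7, 79.2 and 73.4 CPM (log2 fold change 2.17 ± 0.35) and from 286, 249 and 148 CPM to 730, 540 and 649 CPM (1.51 ± 0.24), and Cd209b changed by 1.40 ± 0.33. Reads of such near copies may be split between them, so the values of single Cd209 genes are less certain than their shared direction. Clec4n, the fungal receptor dectin-2, went from 316, 372 and 233 CPM to 702, 721 and 849 CPM (1.32 ± 0.17). Clec10a, a galactose-binding lectin, went from 247, 202 and 242 CPM to 417, 370 and 447 CPM (0.85 ± 0.12), and the membrane protein gene Ms4a7 from 1060, 1033 and 1025 CPM to 1765, 1605 and 1839 CPM (0.76 ± 0.08). Cbr2, a carbonyl reductase, rose by 1.22 ± 0.14 and Apoe, the lipid carrier, by 0.87 ± 0.11, from 28920, 30880 and 23190 CPM to 53600, 45870 and 50640 CPM. Values of Folr2 (0.37 ± 0.17), Timd4 (0.74 ± 0.20) and Maf (0.24 ± 0.10) were positive and not called. Higher members numbered 7 to 13 and lower members 6 to 7 with 1 library left out (7 higher without P10 replicate 3, 8 without P3 replicate 1 or 3, and 6 lower without P10 replicate 3 or P3 replicate 1), 10 and 7 with length offsets, and 0 and 1 in the fit of all 45 libraries, where Stab1 remained. Calls of Cd209g, Cd209f, Clec10a, Ms4a7, Apoe, Stab1, Cd163, Lyve1 and F13a1 held without each library, that of Mrc1 in none of these fits, that of Slc40a1 only without P10 replicate 2 and that of Cd209b only without P3 replicate 2. Mrc1 was also not called with length offsets (-0.17). Among markers of microglia, 4 of 21 tested were higher at P10 and 1 lower. Siglech went from 23.4, 31.7 and 23.5 CPM to 56.8, 91.8 and 90.5 CPM (1.62 ± 0.24). Olfml3 changed by 1.49 ± 0.20 and Fcrls by 0.49 ± 0.09, and Cx3cr1, the reporter locus, by -0.56 ± 0.11. Cx3cr1 lost its call without any 1 library and with length offsets (-0.33), and P2ry12 (-0.13 ± 0.11) and Tmem119 (-0.24 ± 0.27) were not called.

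**Figure D4:**
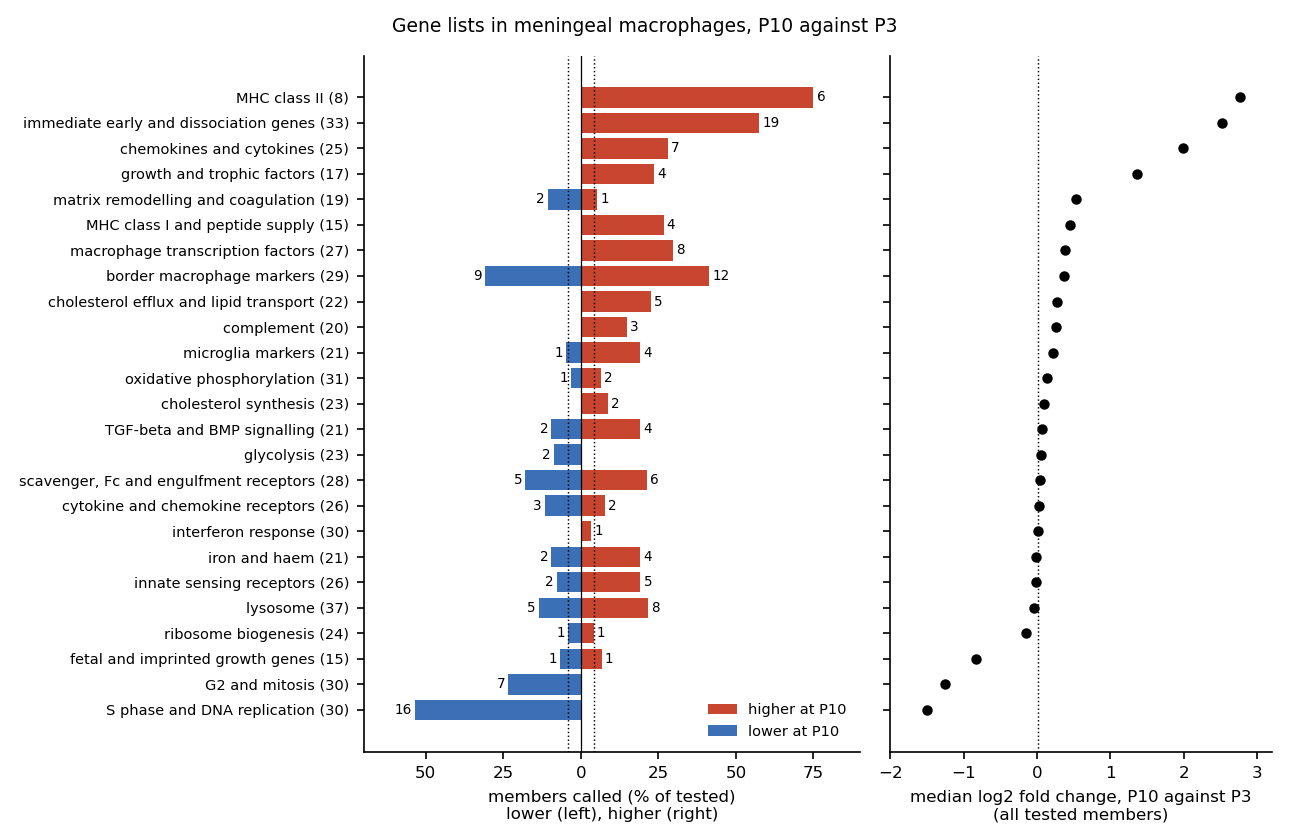
Gene lists of programmes, with the number of tested members in parentheses, ordered by the median log2 fold change of all tested members (right). Bars on the left give the percent of tested members called lower (blue) and higher (red) at P10 with their counts, and dotted lines mark all genes tested (4.05% lower, 4.24% higher, median 0.01). MHC class II genes stand at the top and replication genes at the bottom.

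Many immediate early and dissociation genes rose: 19 of 33 tested members were higher at P10 and 0 lower, with a median log2 fold change of 2.52. Atf3, a stress-induced transcription factor gene, stood at 17.1, 24.8 and 182 CPM at P3 and at 1876, 1786 and 2069 CPM at P10 (4.70 ± 1.01, adjusted p = 0.044, edgeR's quasi-likelihood test). Junb, a subunit of AP-1, stood at 147, 153 and 758 CPM and at 3228, 3536 and 3274 CPM (3.27 ± 0.71). P3 replicate 3 was several times above the other P3 libraries in both genes and still below all P10 libraries. Ier5 went from 62.2, 70.4 and 164 CPM to 862, 964 and 844 CPM (3.19 ± 0.36) and the endosomal GTPase gene Rhob from 54.6, 58.0 and 97.5 CPM to 290, 378 and 336 CPM (2.28 ± 0.23). Fos itself stood at 397, 346 and 1514 CPM and at 3310, 4404 and 3763 CPM and was not called (2.37 ± 0.61, adjusted p = 0.072). Heat shock genes that dissociation also raises were among the called ones, with 30.7, 40.0 and 44.8 CPM of Hsp90aa1 at P3 and 111, 118 and 166 CPM at P10 (1.79 ± 0.21). Without P3 replicate 3 the list had 30 members called, and 10 and 9 without P3 replicate 1 or 2, 11, 9 and 9 without P10 replicate 1, 2 or 3, 15 with length offsets, 7 with no filter on low counts and 20 in the fit of all 45 libraries. Atf3 was called only without P3 replicate 1 or 3, and Junb only without P3 replicate 3.

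Gadd45g, Gdf15 and Ifrd1 were among the genes with the largest rises. Gadd45g, of the growth arrest and DNA damage family, went from 0.377, 2.26 and 1.43 CPM to 135, 104 and 104 CPM (6.40 ± 0.51, adjusted p = 0.0012, edgeR's quasi-likelihood test). Its relatives Gadd45a and Gadd45b changed by 4.34 ± 0.43 and 3.88 ± 0.68, and Gdf15, a stress-induced cytokine gene, by 5.01 ± 0.69. Id2, an inhibitor of helix-loop-helix factors, went from 21.9, 22.8 and 54.7 CPM to 415, 587 and 482 CPM (3.92 ± 0.38). Rgs1, a brake on chemokine receptor signalling, went from 4.15, 3.03 and 7.7 CPM to 80.4, 84.1 and 67.5 CPM (3.98 ± 0.36). Each of these genes showed no overlap between ages, and the calls of all but Gadd45b held without each library. Gadd45b, which is also counted among the immediate early genes, was lost without any 1 P10 library. At P3 it stood at 15, 15.4 and 70.1 CPM and Gdf15 at 0.545, 0.613 and 2.78 CPM. Replicate 3 was thus the highest P3 library in both, as in the immediate early list, but not in Gadd45g. Ifrd1, a transcriptional coregulator, changed by 4.45 ± 0.54, Ccrl2, an atypical chemokine receptor, by 4.52 ± 0.89, and Maff, a small Maf factor, by 4.32 ± 0.75. Ccrl2 was lost without P3 replicate 2 or any P10 library, and Maff without P3 replicate 2. Replicate 3 was again the highest P3 library in Ifrd1 (18.2, 30.9 and 76.2 CPM), Ccrl2 (1.84, 4.33 and 22.3 CPM) and Maff (0.461, 1.69 and 5.89 CPM). Among macrophage transcription factors, 8 of 27 tested were higher at P10 and 0 lower, with a median of 0.38. Nfil3, a circadian and cytokine-induced repressor, went from 18.4, 11.1 and 21.2 CPM to 237, 193 and 123 CPM (3.46 ± 0.32). Cebpb, a driver of inflammatory genes, went from 81.8, 91.0 and 168 CPM to 651, 722 and 784 CPM (2.68 ± 0.27). Rel, a subunit of NF-kappaB, rose by 2.27 ± 0.22, while Mef2c (0.38 ± 0.11) was not called. The list had 6 or 7 members called with any 1 library left out, 10 with length offsets and 4 in the fit of all 45 libraries. Klf2 and Klf4, which are members here, are also counted among the immediate early genes.

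Some secreted signals rose. Of 25 tested chemokine and cytokine genes, 7 were higher at P10 and 0 lower, with a median log2 fold change of 1.99. Il10, the anti-inflammatory cytokine, went from 4.82, 1.84 and 6.31 CPM to 32.6, 53.2 and 72.7 CPM (3.63 ± 0.50, adjusted p = 0.0063, edgeR's quasi-likelihood test). Ccl8, a monocyte chemoattractant, went from 25.1, 10.6 and 12 CPM to 76.1, 64.1 and 103 CPM (2.37 ± 0.36). Cxcl16, a membrane-bound chemokine gene, went from 17.9, 13.3 and 11.4 CPM to 71.6, 39.8 and 60.4 CPM (2.03 ± 0.28). Ccl3, an inflammatory chemokine gene, stood at 39.6, 31.9 and 158 CPM and at 638, 712 and 577 CPM (3.09 ± 0.64), again with P3 replicate 3 the highest of its group. The neutrophil chemoattractant gene Cxcl3 had no count at P3 and 3.94, 3.27 and 2.6 CPM at P10, at least 81.9-fold higher. Ccl2 (186, 225 and 1063 CPM, then 1526, 2156 and 2088 CPM) and Ccl7 (2.24 ± 0.52, adjusted p = 0.05) were not called in the fit of 6 libraries. Without P3 replicate 3, 17 members of the list were called, and 4 to 6 without any other library, with 4 without P10 replicate 3. Il10 and Ccl8 were called without each library, Ccl3 only without P3 replicate 3 and Cxcl3 in none of the fits without a P10 library. Of growth and trophic factors, 4 of 17 tested were higher at P10 and 0 lower. Hbegf, a ligand of the EGF receptor, went from 2.05, 6.47 and 10.1 CPM to 136, 149 and 113 CPM (4.44 ± 0.50). Pdgfa changed by 2.21 ± 0.44, and Igf1, the insulin-like growth factor, went from 345, 316 and 319 CPM to 396, 423 and 434 CPM (0.37 ± 0.09). Hbegf was called without each library, Igf1 in none of these fits, and Pdgfa was lost without P10 replicate 1 or 3 or P3 replicate 2 or 3. The 4 calls of this list became 2 or 3 without any 1 library (2 without P10 replicate 1 or 3). In the TGF-beta and BMP list 4 of 21 were higher and 2 lower, among them Id2 and Id3, targets of BMP signalling (Id3 1.73 ± 0.21), Bmp2 (1.75 ± 0.35) and Skil, a brake on SMAD factors (2.85 ± 0.52). The lower ones were Smad3 (-1.40 ± 0.35), which transmits TGF-beta signals, and Nrros (-0.53 ± 0.08), which holds latent TGF-beta. Higher calls numbered 2 without P10 replicate 2 or 3 or P3 replicate 1, and lower calls 1 without any 1 library and 1 with length offsets. Bmp2 was called only without P3 replicate 3, and Skil was lost without P10 replicate 2 or 3 or P3 replicate 1.

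Receptors of sensing and uptake moved in both directions. Cd14, the co-receptor for lipopolysaccharide, went from 418, 407 and 640 CPM to 4317, 3406 and 3508 CPM (2.96 ± 0.19, adjusted p = 0.00058, edgeR's quasi-likelihood test) and was called in every fit tried. Clec7a, the beta-glucan receptor dectin-1, changed by 1.5 ± 0.32 and Nlrp3, the inflammasome sensor, by 2.42 ± 0.45, while Tlr4 and Tlr6 changed by -0.71 ± 0.17 and -1.35 ± 0.31. With 1 library left out, Clec7a was called only without P10 replicate 1 or P3 replicate 1. Nlrp3 was called only without P10 replicate 1 or P3 replicate 3, and Tlr6 only without P10 replicate 2. In all, 5 of 26 tested innate sensing receptors were higher at P10 and 2 lower. Without P10 replicate 2 or 3 or P3 replicate 2 the higher ones numbered 2 and without P3 replicate 1 they numbered 3. The lower ones numbered 0 without P10 replicate 1 or any P3 replicate, 1 without P10 replicate 2 and 0 with length offsets. Lrp1, an uptake receptor for apolipoproteins and protease complexes, fell from 85.6, 87.6 and 108 CPM to 20.1, 13.9 and 22.1 CPM (-2.31 ± 0.22), a change of -2.24 with length offsets, and its call held without each library. Among the 28 tested scavenger, Fc and engulfment receptors, 6 were higher, including Fcgr2b, the inhibitory Fc receptor (0.82 ± 0.10), and Trem2 (0.48 ± 0.10), and 5 were lower. Higher members of the latter list numbered 5, 3 and 2 without P10 replicate 1, 2 or 3 and 3, 3 and 2 without P3 replicate 1, 2 or 3, and lower ones 4 in each. Csf1r, the receptor for the survival factor CSF-1, stood at 6272, 5984 and 6512 CPM and at 4674, 5094 and 4648 CPM (-0.36 ± 0.07), but was not called with length offsets (-0.14) or, except without P10 replicate 2, with 1 library left out. Of cytokine and chemokine receptors, 2 of 26 tested were higher and 3 lower, beside 4.24% and 4.05% of all genes tested. These counts became 0 or 1 higher without any 1 library and 1 lower without any library but P10 replicate 2.

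Complement, lysosomal and lipid genes showed small rises in some members. The genes C1qa, C1qb and C1qc, whose products form C1q, were the 3 called of 20 tested complement genes. C1qa had 3304, 3258 and 3056 CPM at P3 and 4626, 4084 and 4482 CPM at P10 (0.47 ± 0.07). The list had 0 calls without P3 replicate 2 and 1 without P10 replicate 3 or P3 replicate 1. With length offsets the log2 values were 0.22 for C1qa, 0.24 for C1qb and 0.23 for C1qc, and none of these was called. In the lysosome list 8 of 37 members were higher and 5 lower at P10, which became 3 to 5 and 2 or 3 without any 1 library (3 higher without P3 replicate 2 and 2 lower without P10 replicate 2 or P3 replicate 2). The cathepsin genes Ctsh (536, 512 and 548 CPM, then 938, 943 and 904 CPM) and Ctss (1262, 1412 and 1575 CPM, then 2223, 2178 and 2351 CPM) rose by 0.82 ± 0.08 and 0.69 ± 0.10, whereas the glycosidase gene Man2b1 (-0.72 ± 0.08) fell. Ctsb (0.21 ± 0.06) was not called. Gla, the alpha-galactosidase gene, went from 5.49, 7.24 and 14.8 CPM to 64.6, 59.1 and 33.3 CPM (2.53 ± 0.42, lost without P3 replicate 2). Of 22 genes of cholesterol efflux and lipid transport, 5 were higher, among them Apoe and Lpl, the lipoprotein lipase (0.81 ± 0.19), and Plin2, the lipid droplet coat, was not called (0.15 ± 0.09). These 5 became 1 without P10 replicate 3 or P3 replicate 1, 2 without P10 replicate 1 or P3 replicate 2 or 3, and 3 without P10 replicate 2. Of these fits, Lpl was called only in that without P10 replicate 2. Cholesterol synthesis had 2 of 23 higher (Msmo1 0.70 ± 0.14 and Insig1 1.84 ± 0.46), and 0 without P10 replicate 1 or 3 or P3 replicate 1 or 2 and 1 without P10 replicate 2. Its share of called members was near the 8.3% of all genes tested. The median log2 fold change of this list was 0.09, against 0.01 for all genes tested. Of 21 iron and haem genes, 4 were higher and 2 lower, against 2 or 3 and 1 or 2 without any 1 library (2 higher without any but P3 replicate 1). The ferritin chains Fth1 (3664, 3081 and 3241 CPM, then 5546, 5214 and 5287 CPM, log2 fold change 0.70 ± 0.08) and Ftl1 (0.51 ± 0.07) rose, and the exporter gene Slc40a1 was lower.

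MHC class I genes rose in part, with 4 of 15 tested higher at P10 and 0 lower. B2m, the light chain, went from 2231, 2712 and 2111 CPM to 3259, 3686 and 4292 CPM (0.69 ± 0.13) and the heavy chain gene H2-K1 from 567, 546 and 417 CPM to 835, 773 and 910 CPM (0.74 ± 0.13). The 4 calls became 1 without P3 replicate 1, 2 without P3 replicate 2 or 3 or P10 replicate 3, and 0 in the fit of all 45 libraries. With 1 library left out, B2m was called only without P10 replicate 1 or P3 replicate 2. H2-K1 was lost without P10 replicate 3 or P3 replicate 2. Of interferon response genes, 1 of 30 tested was higher, beside 4.24% of all genes tested, with a median log2 fold change of 0.02. The 1 called member was Ifi207, a PYHIN family gene, at 195, 192 and 176 CPM and at 409, 608 and 470 CPM (1.42 ± 0.15, adjusted p = 0.0027, edgeR's quasi-likelihood test), and its relative Ifi208 had no count at P3 and 18.3, 10.2 and 8.9 CPM at P10, at least 318-fold higher. Reads of these similar genes may be shared between them. Bst2 (0.57 ± 0.16) and Ifi27l2a (-0.50 ± 0.29) were not called. Metabolic lists had shares of called members near the 8.3% of all genes tested. Glycolysis had 0 of 23 higher and 2 lower (Ldha -0.42 ± 0.09 and Pdk1 -1.06 ± 0.21), oxidative phosphorylation 2 of 31 higher and 1 lower, and ribosome biogenesis 1 of 24 in each direction. Without P10 replicate 2 or 3 or P3 replicate 2 or 3, glycolysis had 0 called, and 1 without P3 replicate 1. Oxidative phosphorylation kept calls only without P10 replicate 2, where it had 2 higher, and ribosome biogenesis only without P3 replicate 2 (1 higher) or P10 replicate 1 (1 lower). The fetal and imprinted list had 1 of 15 higher, the imprinted long RNA Meg3 (0.0419, 0.192 and 0.758 CPM, then 10.6, 17.7 and 29.7 CPM, 5.88 ± 0.90), with a median of -0.83 for the list. Its 1 lower member was the RNA-binding protein gene Igf2bp3 (90.9, 79.0 and 113 CPM, then 54.5, 51.1 and 54.7 CPM, -0.80 ± 0.16). Of matrix remodelling and coagulation genes, 1 of 19 was higher (Adamts1, 4.96 ± 1.10) and 2 lower (F13a1 and Lgals1, galectin-1, -0.81 ± 0.13). Beside the counts of this list and of the fetal and imprinted list, 4.24% of all genes tested were higher and 4.05% lower. Adamts1 was called only without P10 replicate 3 and Igf2bp3 only without P3 replicate 2. Some transcripts of myelin and neurons, all at low levels, were higher at P10. Mobp had no count at P3 and 5.85, 6.06 and 5.8 CPM at P10 (at least 145-fold higher). Mbp, a myelin protein gene, went from 13.2, 9.62 and 16.4 CPM to 33.5, 54.4 and 41.4 CPM (1.74 ± 0.29), and the neurofilament gene Nefm from 1 count in all to 1.95, 4.92 and 3.21 CPM (ratio 243, counting interval 43.2 to 9660). They were the 2 called of 9 tested oligodendrocyte genes and the 1 called of 7 tested neuronal genes, whose summed levels were 126 to 167 and 5.7 to 6.67 CPM at P3 and 161 to 168 and 15.5 to 18.8 CPM at P10. Of the 9 oligodendrocyte genes, 8 had positive values. The 1 negative value was that of Cnp, which averaged 119 CPM at P3 and 88.1 CPM at P10 (-0.42 ± 0.17) and was not called. Without P3 replicate 1 the calls of Mbp and Nefm were lost, and that of Nefm also without P10 replicate 2 or 3 or P3 replicate 2.

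Across the 5 ages sampled for mMΦ (3 libraries each), the steps between P3 and P10 differed in what came before and after them. These values are a description with no test. H2-Aa averaged 0.549 CPM at E14.5, 1.05 at P3, 58.1 at P10, 136 at P21 and 2932 at P56, and Cd74 36.9, 98.4, 399, 630 and 9437 CPM. The replication list summed to 3346 to 3844 CPM at E14.5, 1343 to 1651 at P3, 543 to 556 at P10, 491 to 691 at P21 and 337 to 514 at P56, so its P10 level lay within the range of P21. Mcm2 averaged 248, 105, 17.1, 19 and 23.7 CPM. Immediate early and dissociation genes summed to 25310 to 25940 CPM at E14.5 and to 50330 to 73210 CPM at P56, and P3 was the lowest of the 5 ages. Atf3 averaged 373 CPM at E14.5, 74.5 at P3 and 1910 at P10, and Junb 1602, 353 and 3346 CPM. Stab1 averaged 1308 at E14.5, 1831 at P3 and 615, 753 and 865 CPM at P10, P21 and P56, and Lyve1 2109, 4039, 2334, 2092 and 1278 CPM. Cd209g averaged 0.371 CPM at E14.5, 17.5 at P3, 78.1 at P10, 81.5 at P21 and 181 at P56.

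**Figure D5:**
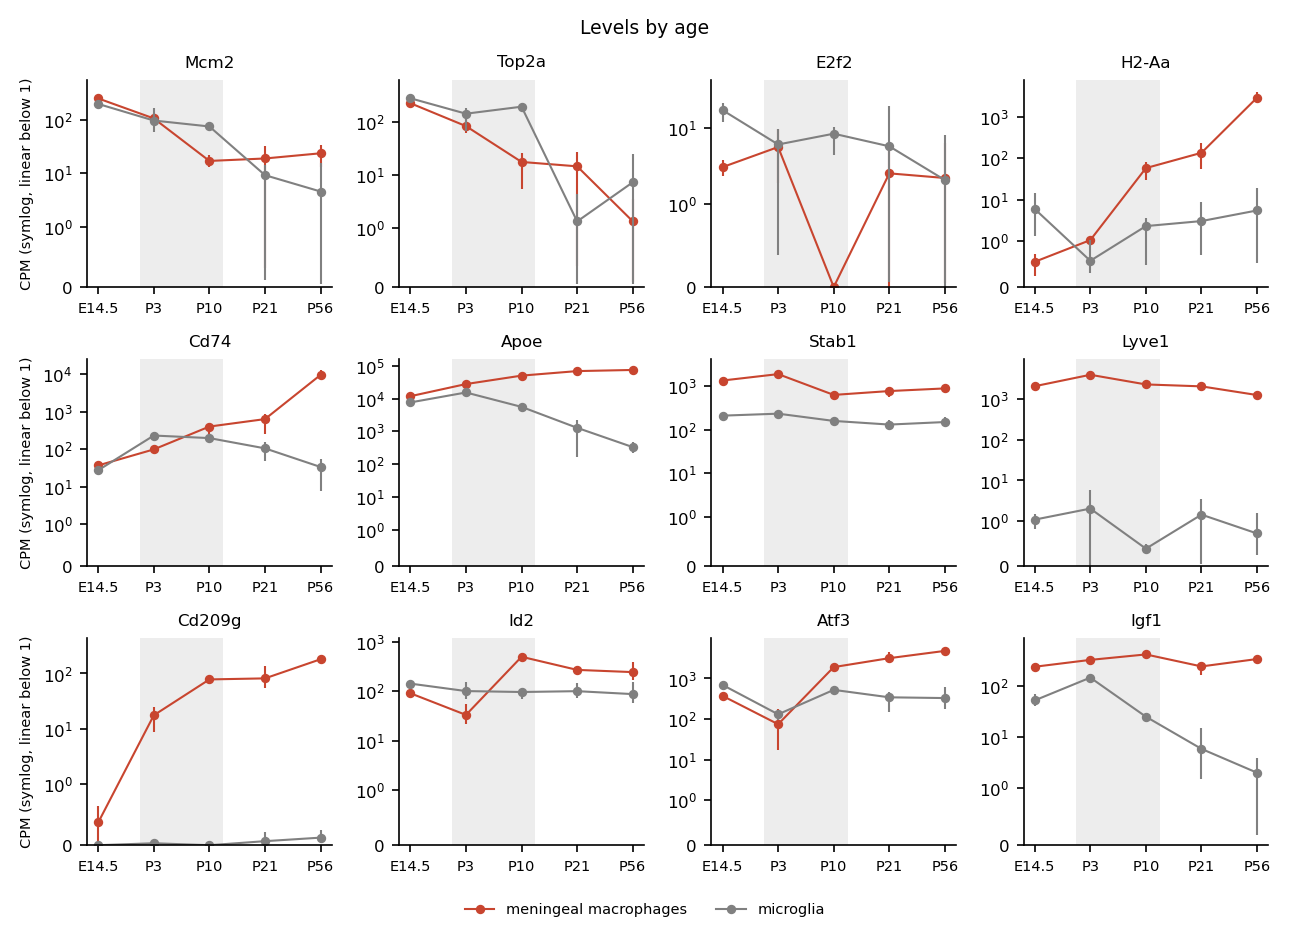
Mean level in CPM by age (symlog axes, linear below 1) of 12 genes in mMΦ (red, 3 libraries per age) and microglia (grey, 3 to 5 libraries per age), with vertical lines from the lowest to the highest library and P3 to P10 shaded. In mMΦ, H2-Aa and Cd74 stand higher again at P21 and P56, and Mcm2 stands lower at P10 than at E14.5 and P3.

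Whether the change from P3 to P10 differed from that of microglia was tested as an interaction in 11 libraries of batch S232 (mMΦ 3 and 3, microglia 2 at P3 and 3 at P10). Of 15107 genes, 72 were called (0.477%), 52 with a change more positive in mMΦ and 20 with a change less positive. Of the 2 microglia libraries at P3, replicate 3 held Xist at 186 CPM and is thus of female type, whereas all others compared had at most 0.795 CPM. The class II genes H2-Ab1 and Cd74 differed: H2-Ab1 had log2 values of 5.05 in mMΦ and 0.04 in microglia (difference 5.01 ± 0.54, adjusted p = 0.0025, edgeR's quasi-likelihood test), and Cd74 of 2.02 and -0.36 (difference 2.38 ± 0.33). The differences of H2-Aa (3.02) and H2-Eb1 (3.74) were not called. Apoe rose in mMΦ and fell in microglia, with means of 27660 and 50030 CPM in mMΦ and 14770 and 5568 CPM in microglia (difference 2.31 ± 0.19). Igf1 stood at 327 and 418 CPM in mMΦ and at 138 and 25.3 CPM in microglia (2.86 ± 0.27). Gadd45g (5.94 ± 0.65), Nfil3 (4.40 ± 0.46), Hbegf (3.77 ± 0.66), Id2 (3.58 ± 0.49) and Cd14 (1.78 ± 0.30) also had more positive values in mMΦ.

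In the other direction, Lrp1 had log2 values of -2.32 in mMΦ and -0.49 in microglia (difference -1.83 ± 0.27). Nid2, a basement membrane protein gene, had values of -2.04 and 0.36 (difference -2.40 ± 0.36) and Shcbp1 of -2.69 and 0.38 (difference -3.06 ± 0.47). For F13a1 they were -0.82 and 1.05 (difference -1.88 ± 0.32), with at most 0.999 CPM on average in microglia. P2ry12, Selplg and Ccr1 rose in microglia and were not called in mMΦ. Of the replication, mitosis and immediate early lists, 0 members were called by edgeR's test, beside 72 of all 15107 genes. An unadjusted p under 0.05 was reached by 1958 of all 15107 genes, and by 15 of 30, 15 of 30 and 12 of 34 members of these lists. Their median log2 values were -1.52, -1.27 and 2.52 in mMΦ and -0.23, 0.16 and 1.16 in microglia. A gene that was not called is not shown to change alike in both populations. The count of 72 became 15, 13 and 110 without mMΦ P3 replicate 1, 2 or 3, and 50, 31 and 39 without mMΦ P10 replicate 1, 2 or 3. It became 76 and 966 without microglia P3 replicate 2 or 3, and 38, 52 and 70 without microglia P10 replicate 1, 2 or 3. Where 1 microglia library remained at P3, it was assumed to vary like the other groups.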

How the data were processed

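The members and gene lists were chosen with earlier results of these data known. Cells were sorted into a stabilising reagent, and full-length cDNA was made into transposase libraries, per the labels' protocols, a kit that keeps no strand. The authors deposited raw counts per gene symbol, made with bcl2fastq 2.18, STAR 2.7.8a and featureCounts 2.0.2 per the submitters' processing notes. Build, annotation and counting strand: not given in the sources used here. Overlapping genes on opposite strands are therefore uncertain. Of 53546 symbols, 35253 had counts.

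The 6 libraries were fitted with edgeR 4.0.16 (R 4.3.3) after filterByExpr (minimum count 10, minimum total 15) and TMM scaling, with the robust quasi-likelihood F test and Benjamini-Hochberg adjustment over all genes tested. The 2 ages were fitted without the other groups (common dispersion 0.191 at P3 alone, 0.268 at P10 alone and 0.228 together). SE is the log2 fold change divided by the square root of F. Replicates differed by far more than counting error (their chi-square was 35.8 to 65.1 times its degrees of freedom at P3), so p-values rest on the spread between mice. Printed CPM use TMM factors over all 45 libraries. Named genes were called, at 5 CPM or more in the higher group and free of overlap: the 20 with the largest changes in each direction (unnamed gene models, mitochondrial, ribosomal protein and sex-linked markers left out), up to 4 called and 2 uncalled members per list, a list of genes followed throughout, and 8 genes per sign of the interaction. Other genes were named after their values were seen, and some genes chosen by the rule are not reported here.

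Alternatives were size factors or the Wald test of DESeq2 1.42.0, voom with quality weights of limma 3.58.1, no filter, wider sets of libraries, the replicate number as a block, leaving out each library, and, added after the data were seen, offsets by transcript length (GENCODE vM21). Simulated counts with known changes served to test both fits.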

Additional observations from a re-analysis of the deposited data

Results flagged for a closer look

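The change from P3 to P10 differed between mMΦ and microglia in the named genes below (interaction in 11 libraries, edgeR's quasi-likelihood test with Benjamini-Hochberg adjustment over all genes). Values are log2 changes in mMΦ minus those in microglia.

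Among genes more positive in mMΦ, 8 fell in microglia to almost no counts. Il1rn, the interleukin-1 receptor antagonist, had no count in the 3 microglia libraries at P10 and averaged 9.09 CPM at P3, and its difference of 13.22 (adjusted p = 0.032) is a fitted value and no bound. Dock6 (7.96), Sik1 (7.79), Cd300ld (7.64), Cd28 (7.46), Oas2 (7.30), Wdr47 (6.51) and Arhgap15 (6.2) averaged at most 0.154 CPM in microglia at P10 as well, and in mMΦ none of these 8 was called.

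A further group rose in mMΦ: Gadd45g (5.94), H2-Ab1 (5.01), Nfil3 (4.40), Hbegf (3.77), Id2 (3.58), Cd74 (2.38) and Cd14 (1.78). Genes of lipid handling and growth differed with a fall in microglia, namely Igf1 (2.86), Apoe (2.31), Lpl (1.88) and Plin2 (1.56). Aldoa, a glycolytic enzyme, and Ctsb, a cathepsin, differed by 1.06 and 0.98.

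Less positive in mMΦ were Ccnj (-11.93, a fitted value with no count in microglia at P3), E2f2 (-9.86, with no count in mMΦ at P10), Shcbp1 (-3.06), Nid2 (-2.40), Selplg (-2.08), F13a1 (-1.88), Lrp1 (-1.83), Ccr1 (-1.68) and P2ry12 (-1.54). Of 16 genes chosen for the size of their difference, 1 stayed called without mMΦ P3 replicate 1, 1 without mMΦ P3 replicate 2, and 5 to 12 without any 1 of the other mMΦ libraries or of the microglia libraries but P3 replicate 3. Without microglia P3 replicate 3, the library of female type, 16 of 16 stayed called in the same direction. In the fit of all 45 libraries 2 stayed called, in 12 libraries with the third microglia library at P3 8, and with the replicate block 7, with 16 of 16 in the same direction in each.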

How the results depend on the processing

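In the comparison of ages, 115 of 115 named called genes kept their direction under every alternative. These genes had no overlap between ages in the same libraries, so a kept direction is little added support. Called were 1034 genes (529 higher, 505 lower), against 1950 (945, 1005) by the Wald test of DESeq2, 114 (109, 5) with all 45 libraries, 259 (209, 50) with the 15 mMΦ libraries, 550 (318, or 57.8%, higher) with the replicate block, and 360 to 702 (220 to 363 higher, 140 to 342 lower) with 1 library left out. Length offsets left 806, of which 324 lower, no low-count filter 1169, size factors of DESeq2 1046 and voom 1179. Replicate numbers showed no pairing of the mice. For this, each gene's mean at an age was subtracted from its log levels. The remaining deviations of same-numbered libraries correlated at 0.009, -0.009 and -0.015, against -0.035 to 0.045 for the other pairs.

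The interaction called 72 genes (52, 20), against 318 (213, 105) with no low-count filter, 571 (338, 233) by the Wald test, 32 (26, 6) with all 45 libraries, 40 (34, 6) with the replicate block, and 13 to 966 (13 to 330, 0 to 636) with 1 library left out. The causes were not tested.

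With 3 libraries a side, a missing call does not show that levels were equal. Leaving out P3 replicate 2 lowered the number of genes called between the ages more than leaving out any of the other 5 libraries, to 360.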

Other observations

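Among the genes with the 8 smallest adjusted p-values, all but Cd14 and Mcm6 lay outside the lists, and these 6 were chosen after their values were seen. Rgs2, a regulator of G protein signalling, stood at 135, 168 and 203 CPM at P3 and at 1326, 1404 and 1627 CPM at P10 (3.13 ± 0.16, adjusted p = 0.00042, edgeR's quasi-likelihood test). Siah2, a ubiquitin ligase of the hypoxia response, went from 20.4, 20.9 and 25.8 CPM to 142, 153 and 137 CPM (2.7 ± 0.15). Sqstm1, an autophagy receptor, and Nfe2l2, the transcription factor NRF2, rose by 1.76 ± 0.10 and 1.52 ± 0.10.

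Malat1, a nuclear long RNA, went from 212, 230 and 301 CPM to 1269, 1476 and 1779 CPM (2.63 ± 0.18), and the splicing factor gene Srsf5 from 56.4, 56 and 62.2 CPM to 357, 452 and 294 CPM (2.68 ± 0.17). P3 replicate 3 stayed below the P10 libraries in these 6 genes, which comes with the call and is no further support. It was the highest P3 library in Rgs2, Siah2, Malat1 and Srsf5.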
